A study of Mus musculus with 2 samples.

Results

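Gene-end peaks are the open-chromatin regions that the deposited annotation of each peak list places in a 3' UTR or in its Downstream class, which reaches up to 3 kb past a transcript's end. The cKO list held 489 of them among 19680 peaks (2.48%) and the WT list 1177 among 34440 (3.42%), so the set is 1666 of 54120 peaks in all. Of the cKO members 283 were 3' UTR peaks and 206 Downstream peaks, and of the WT members 688 were 3' UTR peaks and 489 Downstream peaks. The series asks how transketolase, which interconverts sugar phosphates without producing NADPH, bears on regulatory T (Treg) cells. ATAC-seq, in which the Tn5 transposase inserts sequencing adapters into accessible DNA, was run on sorted CD4+CD25+YFP+ cells of C57BL/6 mice. The cKO library came from mice labelled Foxp3cre/+ TKTfl/fl and described as a Treg-specific TKT knockout, and the WT library from mice labelled Foxp3cre/+ with a wild-type genotype. Both groups therefore carried the Foxp3-driven Cre, which acts in Foxp3-expressing cells. The mice of both groups were females of 7 weeks that the labels call chimeric, the cells came from spleen and lymph node, and 50000 cells entered each reaction. How many mice each library holds, and whether animals were pooled, is not given in the sources used here. There was 1 library per group, so no difference between cKO and WT has a replicate check and no test was possible.

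The 3' end of a gene is where the transcript is cut and polyadenylated, and the 3' UTR before it carries sites for microRNAs and RNA-binding proteins in the finished mRNA. On the DNA the same stretch can hold an enhancer, a boundary element or the start of another transcript, and an open region there often regulates a gene other than the one it lies in. Treg cells are Foxp3-expressing CD4 T cells that restrain immune responses, and they depend on the IL-2 receptor and on inhibitory receptors such as CTLA-4.

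Of 9 marker genes of Treg cells, 8 had at least 1 assigned peak in the cKO list and 8 in the WT list, with Tnfrsf18 lacking one in both. Of 12 markers of other blood cells, 5 had an assigned peak in the cKO list, with 0 to 2 each and 6 in all, and 3 had one in the WT list, with 0 to 4 each and 6 in all. Their part in the results below was not tested. Tkt itself had 1 peak, at its promoter, in the cKO list and 1 in the WT list, and no gene-end peak in either. That promoter peak does not check the deletion.

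The gene that the deposited lists name for a gene-end peak was often not the gene whose end lay there. The midpoint lay within 3 kb of the end of the assigned transcript for 176 of 489 cKO members (36.0%) and 422 of 1177 WT members (35.9%). This midpoint rule is stricter than the edge rule used below for RefSeq ends, so the shares are not like for like. Peaks classed as 2 to 3 kb downstream had a median midpoint 3059 bases past the assigned end in the cKO list. In 199 cKO members (40.7%) and 476 WT members (40.4%) that distance exceeded 10 kb, and 169 cKO members (34.6%) and 405 WT members (34.4%) lay upstream of the assigned gene's start. Predicted gene models or clone names were the assigned gene of 34.6% of the cKO members and 35.7% of the WT members. Each member was therefore also matched to the nearest 3' end of a RefSeq protein-coding gene, with the peak's edge at most 3 kb away. Such an end was found for 365 cKO members (74.6%) and 883 WT members (75.02%). Of these, 213 in the cKO list (58.4%) and 528 in the WT list (59.8%) carried a name other than the symbol of that nearest end. Some of them still lay near the end of the named gene, such as the cKO peak under Psrc1, nearest to Celsr2. Others differed in symbol alone, such as the cKO peak under D10Jhu81e, 1866 bases past both that end and the Gatd3a end. An end of each strand lay within that reach of 49 cKO members and 150 WT members, as where neighbouring genes converge.

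**Figure D1:**
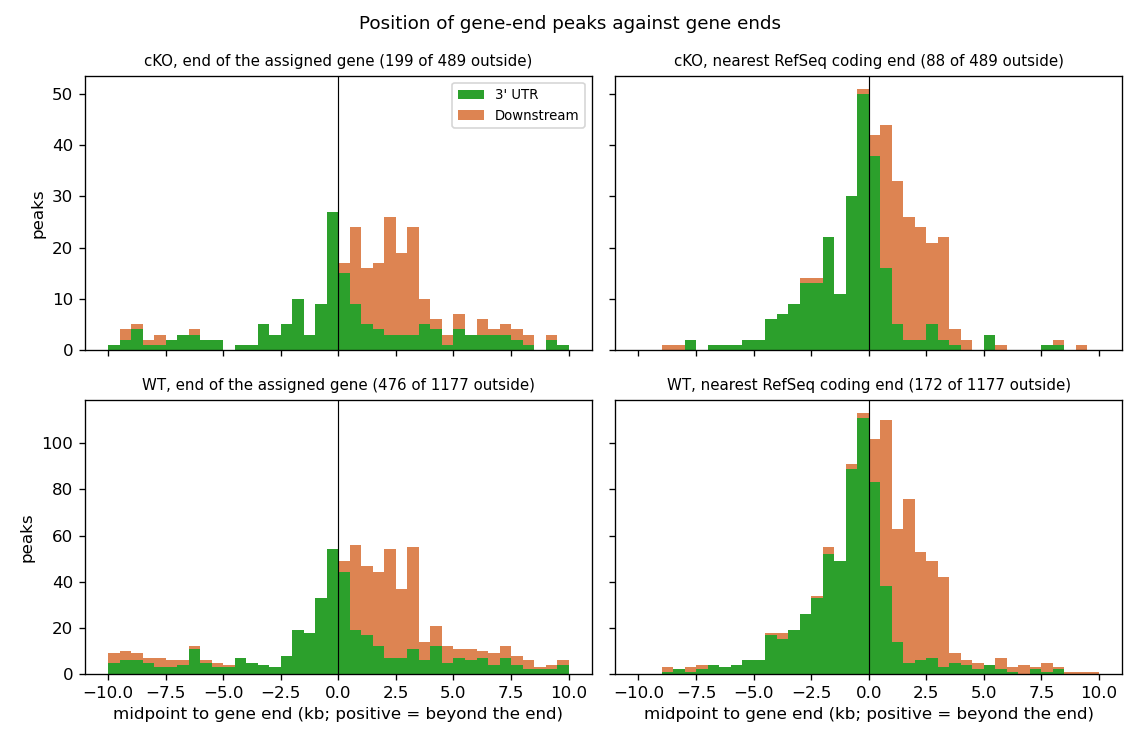
Number of gene-end peaks (vertical axis) by the distance in kb from the peak's midpoint to a gene end, in the direction of transcription, for cKO (top) and WT (bottom); green is 3' UTR and orange Downstream. Against the end of the assigned gene (left) 199 of 489 cKO and 476 of 1177 WT peaks fall outside the 10 kb shown, and against the nearest RefSeq coding end (right) the peaks gather around 0.

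Measured against RefSeq ends, the 3' UTR and Downstream peaks fell on the sides their classes name, as the class definitions largely require. The median midpoint of 3' UTR peaks lay before the end, at −558.5 bases in the cKO list and −703 bases in the WT list. The median midpoint of Downstream peaks lay beyond it, at 1751 bases in the cKO list and 1712.5 bases in the WT list. A coding end itself was covered by 89 cKO members and 205 WT members, nearly all of them 3' UTR peaks (87 in the cKO list and 199 in the WT list). The members marked the ends of 361 coding genes in the cKO list and 859 in the WT list. In the WT list 835 genes had 1 member peak as their nearest and 24 had 2. None of 1005 RefSeq microRNA hairpins was overlapped by a cKO or a WT member, while 73 were overlapped by some cKO peak and 101 by some WT peak. Members were 2.48% of the cKO peaks and 3.42% of the WT peaks. MicroRNA genes such as Mir568 are assigned genes in these lists, and peaks near an assigned start are classed as promoter peaks. The absence can thus follow from the class rules and is no result about the members.

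The Downstream class held few ends of plus-strand genes. Of the Downstream members with a RefSeq end, 13 of 147 in the cKO list (8.84%; Wilson 95% interval 5.24% to 14.5%, counting error only) and 35 of 348 in the WT list (10.1%; 7.32% to 13.7%) lay at a plus-strand end. Plus-strand genes made up 49.9% of the RefSeq coding genes with a strand. The 3' UTR class was near balance, with 106 of 218 cKO peaks (48.6%) and 265 of 535 WT peaks (49.5%) at plus-strand ends. The open regions themselves were not one-sided. Among all peaks outside promoters whose edge lay 1 to 3000 bases beyond a coding end, the cKO list had 186 at plus-strand ends and 172 at minus-strand ends, and the WT list had 428 at plus-strand ends and 394 at minus-strand ends. What differed was the class. At plus-strand ends 137 of the 186 cKO peaks (73.7%) and 303 of the 428 WT peaks (70.8%) were deposited as Distal Intergenic. At minus-strand ends 7 of the 172 cKO peaks (4.07%) and 15 of the 394 WT peaks (3.81%) carried that class, and 129 cKO peaks (75%) and 302 WT peaks (76.6%) were Downstream. The annotation tool is not given in the sources used here, and the cause of this asymmetry was not tested. Downstream peaks are thus described below chiefly for genes on the minus strand.

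**Figure D2:**
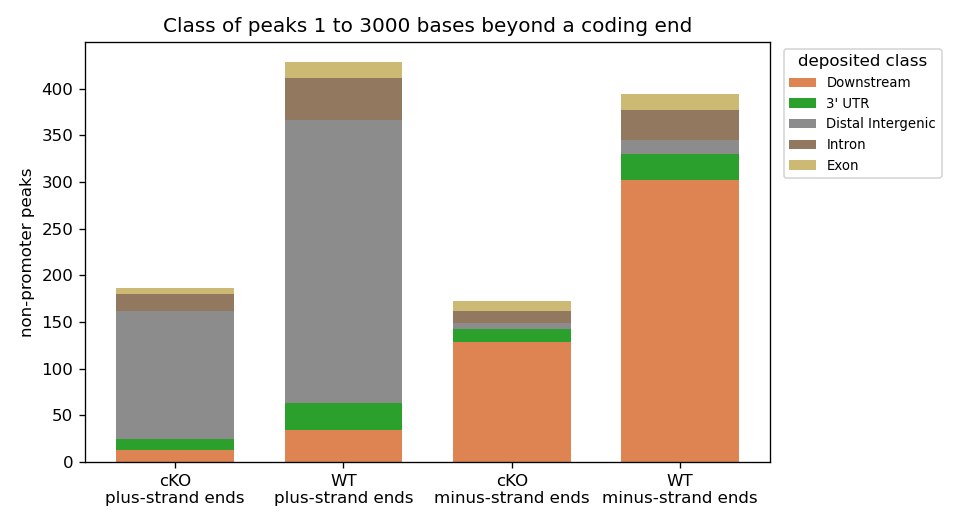
Number of non-promoter peaks (vertical axis) whose edge lies 1 to 3000 bases beyond the nearest RefSeq coding end, for plus-strand and minus-strand ends in cKO and WT, coloured by deposited class. Distal Intergenic makes up 137 of 186 cKO and 303 of 428 WT peaks at plus-strand ends, and Downstream 129 of 172 cKO and 302 of 394 WT peaks at minus-strand ends.

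A few gene-end peaks also covered a gene start. In the cKO list 5 members (1.02%) and in the WT list 14 members (1.19%) covered a RefSeq start, beside 1.52% of all WT peaks outside promoters. Of the other non-promoter peaks, 2.08% in the cKO list and 1.55% in the WT list covered one. The sequences shown are 30-base windows from the RefSeq promoters (GRCm38.p6, the mm10 assembly) of 3 named genes whose start lay inside a gene-end peak, each on its gene's coding strand. They show where a region labelled as a gene's end was the start of a gene. Gramd2, also a named gene, had starts inside a WT 3' UTR peak, and its windows are not shown. Capitals mark a match to AGGGGGC, used here as a CTCF core.
Nhej1 (chr1:75125212-75125241, minus strand): agaccccgccttcctgagtgtgttgtgtgt
Ppfia4 (chr1:134344713-134344742, minus strand): tccgcggaggaAGGGGGCgggtccttgagg
Cdkl4 (chr17:80577470-80577499, minus strand): gagagcgagcaagttgtgtggaagctgcgc
The Nhej1 window, at the start of a gene for a DNA end-joining factor, lay in a Downstream peak assigned to Slc23a3. The Ppfia4 window lay in a Downstream peak deposited under the name Ppfia4 in the cKO list and in the WT list. In the cKO list this peak's edge lay 623 bases past the end of Tmem183a. It stood at −11032 bases from the assigned Ppfia4 start, so it was not past the end of Ppfia4. The Cdkl4 window lay in a WT Downstream peak and in no cKO member. Of the 15 RefSeq promoters covered by WT or cKO members, 3 (20%) held AGGGGGC on either strand, beside 10.6% of all 32851 promoters in the table. The ETS motif CCGGAAG was in 1 of the 15 (6.67%), beside 8.86% of all promoters. The AP-1 motif TGANTCA was also in 1, beside 7.81%, and the RUNX motif TGTGGTT and the forkhead motif TGTTTAC were in none, beside 5.27% and 3.65%. With 15 promoters these shares describe the windows and no more.

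Gene-end peaks had lower scores than promoter peaks in both libraries and were about as wide as other peaks outside promoters. Their median width was 899 bp in the cKO list (465 to 3056 bp), where all peaks had a median of 974 bp, and 845 bp in the WT list (360 to 3832 bp), where all peaks had a median of 977 bp. Other non-promoter peaks had a median of 868 bp in the cKO list and 838 bp in the WT list. The deposited score was used as a rank within its own list, where 100 is the highest percentile. The median gene-end peak stood at percentile 32.9 in the cKO list and 36.2 in the WT list. Promoter peaks stood at 64.1 in the cKO list and 71.2 in the WT list, and all other peaks outside promoters at 31.9 in the cKO list and 37.4 in the WT list. In the top 20% of their list were 32 cKO members (6.54%) and 59 WT members (5.01%), and in the lowest 20% were 151 cKO members (30.9%) and 314 WT members (26.7%). Other non-promoter peaks had similar shares, with 6.60% in the cKO list and 5.74% in the WT list in the top 20%. In the lowest 20% they had 32.5% in the cKO list and 27.3% in the WT list. In total the members covered 482 kb in the cKO list and 1109 kb in the WT list.

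Nearly every cKO gene-end peak had a WT peak at the same place, and the reverse held for a minority of the WT ones. A WT peak overlapped 476 of 489 cKO members by at least 1 bp (97.3%; 95.5% to 98.4%), against 97.6% of all cKO peaks. A cKO peak overlapped 489 of 1177 WT members (41.5%; 38.8% to 44.4%), against 56.1% of all WT peaks. Within the WT list the share was 42.3% (38.7% to 46.0%) for 3' UTR peaks and 40.5% (36.2% to 44.9%) for Downstream peaks, a gap of 1.81 percentage points (Newcombe 95% interval −3.91 to 7.46). Of the other WT peaks away from promoters, 41.4% were overlapped. The WT list was also reduced to its 19680 strongest peaks, as many as the cKO list holds. Then 72.6% of the cKO members and 73.7% of the WT members were overlapped. Lists of equal length, here with 489 cKO and 491 WT members, give near-equal shares almost by construction. That likeness is no test of the one-sidedness in the full lists, which goes with their unequal lengths. The gap between gene-end and other non-promoter WT peaks in the full lists was 0.15 points (−2.73 to 3.08), and exon peaks stood at 42.6%, intron peaks at 39.8% and distal intergenic peaks at 42.9%. Promoter peaks stood apart at 74.3%. In the cKO list the gap between gene-end peaks and other non-promoter peaks was 1.92 points (0.03 to 3.12). The intervals cover counting error only, because each group has 1 library. They also take peaks as independent, which adjacent regions need not be. Sequencing depth is unknown, so a WT peak without a cKO overlap cannot be told apart from one below the caller's threshold in the cKO library.

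The overlap of WT gene-end peaks with the cKO list followed their rank. Over 5 equal classes of the WT scores, from the lowest to the highest, the share of members overlapped was 9.24%, 24.8%, 52.3%, 86.3% and 98.3%. Other non-promoter WT peaks gave 9.47%, 24.5%, 51.1%, 86.0% and 98.6% over the same classes, each value inside the interval of the members. The cKO members were overlapped at 92.7% in the lowest class, 98.6% in the next and 100% in the upper 3. Other non-promoter cKO peaks gave 86.9% (85.6% to 88.2%) in the lowest class, an interval that overlaps the members' 87.4% to 95.9%. In the next 4 classes they gave 99.0%, 99.8%, 100% and 100%.

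**Figure D3:**
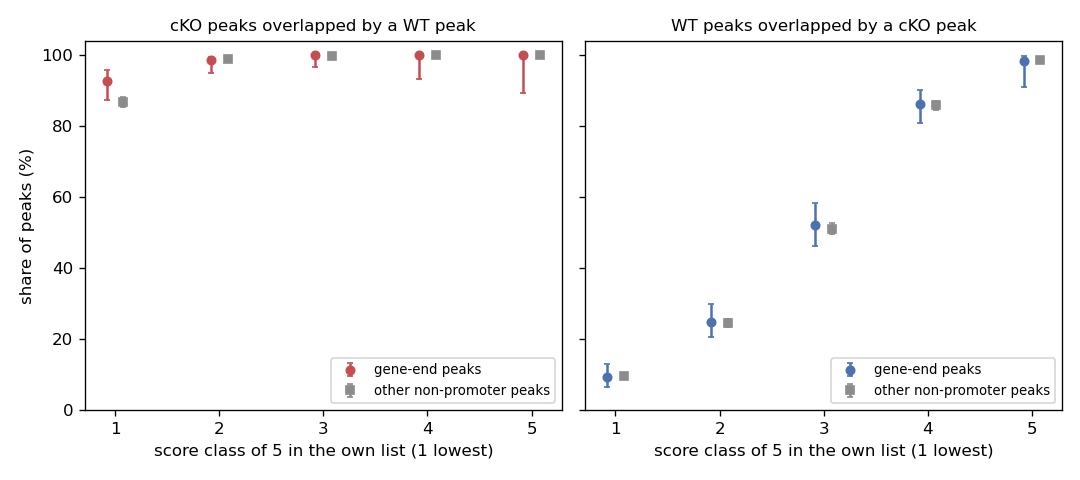
Share of peaks overlapped by the other list (vertical axis, percent) by 5 equal classes of the score within the own list, for cKO peaks (left) and WT peaks (right); circles are gene-end peaks, squares other non-promoter peaks, and bars Wilson 95% intervals. WT gene-end peaks climb from 9.24% to 98.3% beside the other non-promoter peaks, and cKO gene-end peaks are at 92.7% or above in every class.

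The 688 WT members without a cKO overlap were narrow, with a median width of 667 bp and a median percentile of 25.1. The 489 overlapped WT members had a median width of 1145 bp and a median percentile of 59.7. Of the 688, 138 were narrower than any peak of the cKO list. The nearest cKO peak lay a median of 13730 bases away from them. The 13 cKO members without a WT overlap had a median width of 647 bp and a median percentile of 2.18. Where peaks of both lists met, 453 of 476 partners of cKO members and 454 of 489 partners of WT members were gene-end peaks too, and the midpoints were a median of 86.5 bases apart for cKO members and 87.5 bases for WT members. The WT peak was the wider one for 407 of 489 WT members (83.2%), with a median ratio to its cKO partner of 1.23. This share was not computed for overlapped peaks of other classes, so it shows no trait of gene ends.

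**Figure D4:**
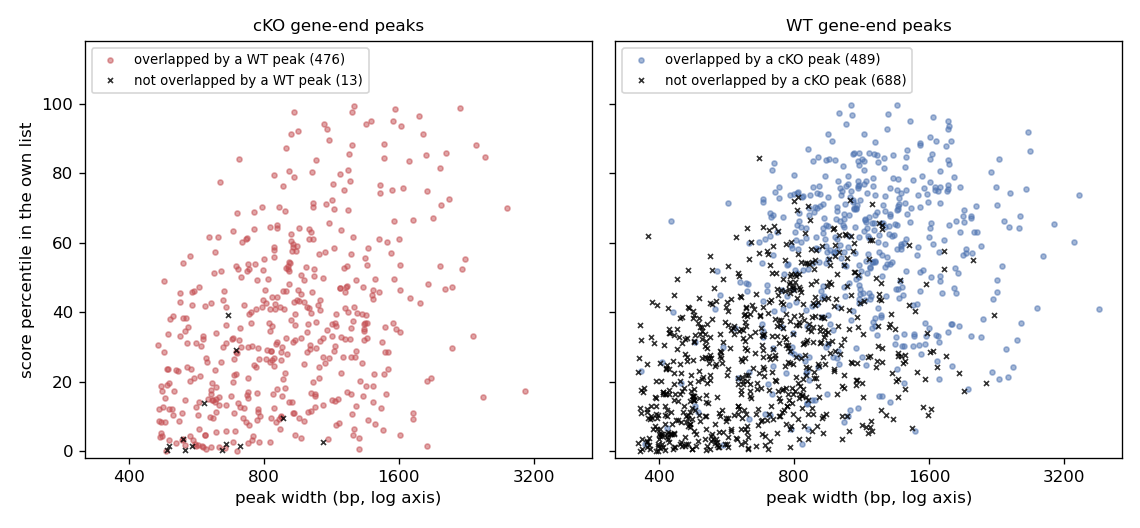
Score percentile within the own list (vertical axis) against peak width in bp (log axis) for each gene-end peak of cKO (left) and WT (right); filled circles are overlapped by the other list and crosses are not. The 688 WT crosses lie mostly at low width and rank (medians 667 bp and 25.1), and the 13 cKO crosses are at or under percentile 39.1.

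The strongest gene-end peak of both libraries was a Downstream peak assigned to the predicted gene Gm38140, at percentile 99.4 in the cKO list (chr1:134092795-134094070) and 99.7 in the WT list (chr1:134092767-134094127). A 3' UTR peak deposited under BC035947 stood at 96.5 in the cKO list and 89.3 in the WT list. Another, deposited under the predicted gene Gm45609, stood at 91.4 in the cKO list and 97.4 in the WT list. In the cKO list both lay upstream of the assigned start, at −24778 bases for BC035947 and −22881 bases for Gm45609. High-ranking peaks under the names of annotated genes lay at T cell genes and at others. Cd3d, which encodes the delta chain of the CD3 complex of the T cell receptor, had a peak over its last bases in both lists. It spanned chr9:44985921-44987272 at percentile 94.1 in the cKO list and chr9:44985725-44987492 at percentile 94.96 in the WT list. A Downstream peak under the name of Neu4 lay 2896.5 bases past the end of Pdcd1, which encodes the inhibitory receptor PD-1, at percentile 92.7 in the cKO list, and 3019.5 bases past it at percentile 95.1 in the WT list. Both regions were thus in the top 20% of both lists.

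Trbv31, the T cell receptor beta variable segment that lies past the constant segments, had a Downstream peak at percentile 98.6 in the cKO list (chr6:41553455-41555027) and 89.2 in the WT list (chr6:41553430-41555085). The enhancer of the beta locus is known to lie between the constant segments and this variable segment. Pdcd1lg2, which encodes the PD-1 ligand PD-L2, had a 3' UTR peak at percentile 95.1 in the cKO list and 92.7 in the WT list, although its midpoint stood at −18387 bases from the RefSeq end in the cKO list and −18384 bases in the WT list. The Downstream peak of Slc23a3 that covered the start of Nhej1 stood at percentile 97.7 in the cKO list and 99.6 in the WT list. A 3' UTR peak deposited under Amz2 stood at percentile 97.5 in the cKO list and 97.1 in the WT list. In the cKO list it lay upstream of the assigned Amz2 start, at −5054 bases, and so not in the 3' UTR of Amz2. The peak past Cacnb1, deposited under Arl5c, was Downstream at percentile 98.6 in the cKO list, and its WT partner at percentile 81.0 was classed as a promoter peak.

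By RefSeq end, the 4 lists of Treg, transcription factor, signalling and homing genes, 196 genes in all, had 31 gene-end peaks at 29 genes (14.8%) in the cKO list and 53 at 46 genes (23.5%) in the WT list. Over all 19787 coding genes with a strand the shares were 1.82% in the cKO list and 4.34% in the WT list. The lists were chosen with earlier results of these data known. How often their genes carry other peaks outside promoters was not computed, so the shares do not show a trait of gene ends. Of the 31 cKO peaks, 30 met a WT peak, and 31 of the 53 WT peaks met a cKO peak (58.5%; 45.1% to 70.7%), beside 41.5% of all WT members. The deposited name differed from the symbol of the nearest end for 16 of the 31 cKO peaks and 26 of the 53 WT peaks. Among the 31 overlapped WT peaks, 27 were wider than their cKO partner and 3 narrower, beside 83.2% wider among all overlapped WT members. Percentiles in lists of unequal length are set side by side below without reading a change from them.

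**Figure D5:**
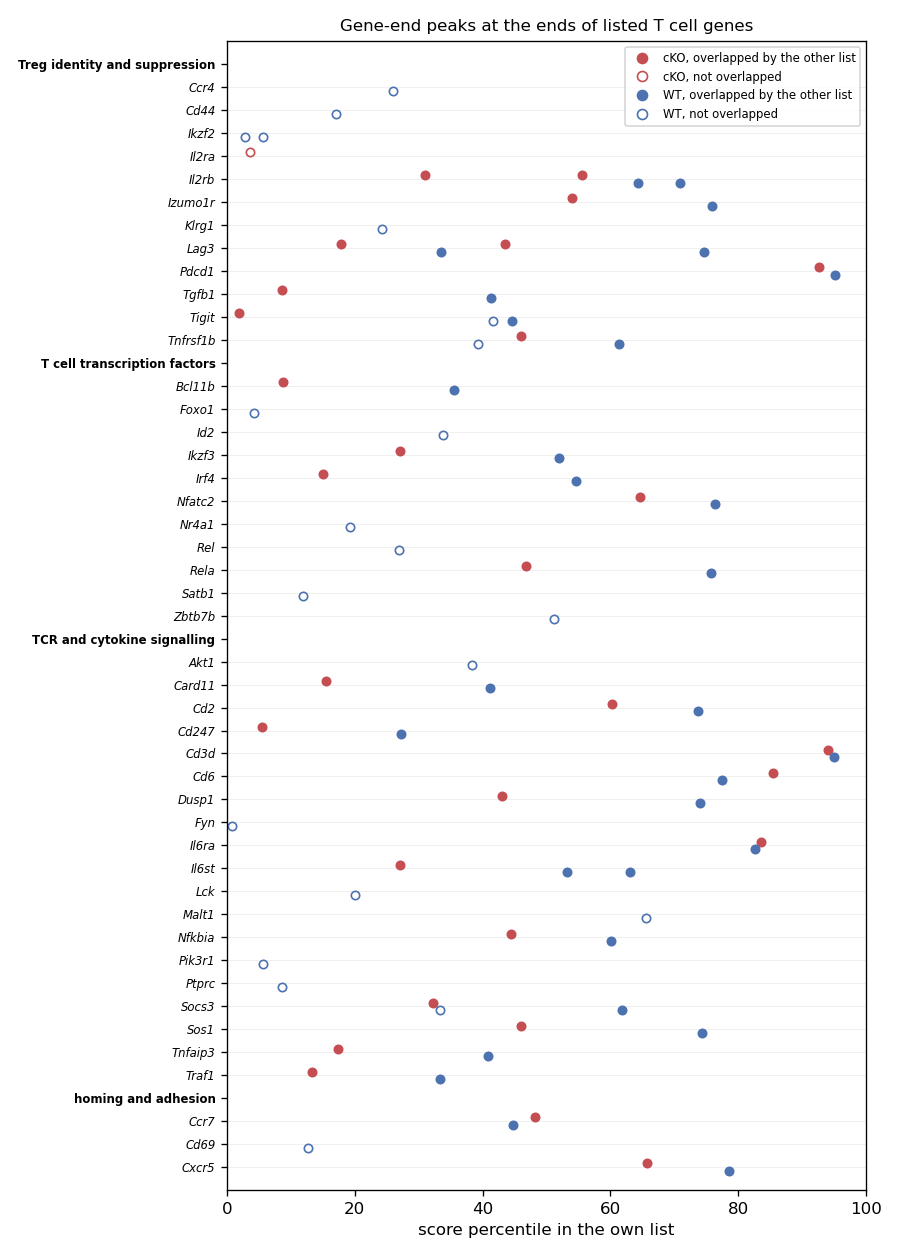
Score percentile within the own list (horizontal axis) of the gene-end peaks at the RefSeq ends of the genes shown from the 4 T cell lists, cKO in red and WT in blue; filled circles are overlapped by the other list and open circles are not. Of the 30 cKO peaks drawn 29 are filled, and of the 51 WT peaks drawn 30 are filled.

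Among 44 genes of Treg identity and suppression, the cKO list had 10 gene-end peaks, 9 of them overlapped by WT, and the WT list had 16, also with 9 overlapped by cKO. Il2rb, the beta chain of the IL-2 receptor, had a 3' UTR peak and a Downstream peak in both lists, all deposited under Tmprss6. The 3' UTR peak was 854 bp wide at percentile 31.0 in the cKO list and 2545 bp wide at percentile 64.3 in the WT list, and the Downstream peak stood at 55.5 in the cKO list and 70.9 in the WT list. Lag3, an inhibitory receptor that binds MHC class II, had a pair of Downstream peaks in both lists, with the near one at percentile 43.4 in the cKO list and 74.7 in the WT list. Izumo1r, which encodes the folate receptor FR4 of Treg cells, had a Downstream peak at percentile 54.0 in the cKO list and 75.9 in the WT list. The peak past Tnfrsf1b, the gene of the TNF receptor TNFR2, stood at 46.0 in the cKO list and 61.4 in the WT list, under the name Vps13d. The peak past Tgfb1, the cytokine gene, was deposited under Ccdc97 and stood at 8.66 in the cKO list and 41.4 in the WT list. In the cKO list its midpoint lay 2832 bases past the Tgfb1 end and 3197 bases past the assigned Ccdc97 end. Tigit, an inhibitory receptor, had 1 cKO peak at percentile 1.90 and 2 WT peaks at 44.6 and 41.6, deposited under Mir568.

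The end of Il2ra, the alpha chain of the IL-2 receptor and the CD25 of the sort, carried the 1 cKO peak of these lists that no WT peak overlapped. It spanned chr2:11692761-11693290 at percentile 3.51 and covered the RefSeq end. A WT peak of percentile 1.72 began 99 bases further on, at chr2:11693390-11693943, and was deposited as Distal Intergenic. Both libraries thus had a weak peak there, and the 1 bp rule separated them. Ikzf2, which encodes the Treg factor Helios, had 3' UTR peaks in the WT list alone, at percentiles 2.87 and 5.70 near its end and at 38.6 further inside, all deposited under a predicted gene. Ccr4, Klrg1 and Cd44, a chemokine receptor, a lectin receptor and an adhesion receptor, also had WT peaks with no cKO overlap, at percentiles 26.0, 24.3 and 17.0.

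Among 61 transcription factors of T cells, 5 cKO peaks were all overlapped by WT, and 5 of 11 WT peaks were overlapped by cKO. Nfatc2, a calcium-regulated factor, had a Downstream peak at percentile 64.6 in the cKO list and 76.4 in the WT list. Rela, a subunit of NF-kappaB, had one at 46.8 in the cKO list and 75.8 in the WT list. Irf4, a factor of effector Treg cells, had a peak at its end that was 602 bp wide at percentile 14.9 in the cKO list and 1325 bp wide at 54.5 in the WT list. The ends of Ikzf3, which encodes Aiolos, and Bcl11b also had a peak in each list. Zbtb7b, the CD4-lineage factor ThPOK, had a WT peak at percentile 51.2 with no cKO overlap, and so had Id2 at 33.8, Rel at 27.0, Nr4a1 at 19.2, Satb1 at 11.9 and Foxo1 at 4.29.

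The 68 signalling genes had 14 gene-end peaks in the cKO list, all overlapped by WT, and 22 in the WT list, 15 of them overlapped by cKO. Cd6, a surface receptor of T cells, had a Downstream peak at percentile 85.4 in the cKO list and 77.4 in the WT list. Il6ra, the IL-6 receptor, had a 3' UTR peak at 83.5 in the cKO list and 82.6 in the WT list, deposited under She. Cd2, an adhesion receptor, had a peak of 1509 bp in both lists, at percentile 60.2 in the cKO list and 73.7 in the WT list. Several brakes on signalling were among them. Tnfaip3, whose product A20 restrains NF-kappaB, carried the widest gene-end peak of both libraries, 3056 bp at percentile 17.4 in the cKO list and 3832 bp at percentile 40.8 in the WT list. Nfkbia, an inhibitor of NF-kappaB, stood at 44.4 in the cKO list and 60.1 in the WT list, and Dusp1, a phosphatase of MAP kinases, at 43.0 in the cKO list and 74.1 in the WT list. Socs3, an inhibitor of cytokine signalling, had 1 Downstream peak at 32.2 in the cKO list and 2 in the WT list, at 61.9 and 33.3. The ends of the kinase genes Lck, Fyn and Akt1 had peaks in the WT list alone, at percentiles 20.1, 0.71 and 38.3.

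The 24 homing genes had 2 cKO peaks, both overlapped by WT, and 4 WT peaks, 2 of them overlapped by cKO. Ccr7, the receptor that guides T cells into lymph nodes, had a 3' UTR peak at percentile 48.2 in the cKO list and 44.7 in the WT list, and was one of the 3 regions wider in cKO, with 1860 bp in the cKO list and 1286 bp in the WT list. Cxcr5, a receptor for entry into follicles, stood at 65.8 in the cKO list and 78.5 in the WT list, under Bcl9l. The peak at the end of Cd69, an early activation marker, was in the WT list alone, at 12.7. Of 80 genes of central carbon metabolism, none had a gene-end peak in the cKO list and 2 (2.5%) had one in the WT list, beside the 1.82% of all coding genes in the cKO list and 4.34% in the WT list. Counts this small do not set the list apart. These were H6pd, an enzyme of the pentose phosphate pathway in the endoplasmic reticulum, at percentile 33.5, and Pkm, a pyruvate kinase, at 15.7. The WT 3' UTR peak of percentile 15.7 at chr9:59678983-59680350, deposited under AC160637.1, also covered RefSeq starts of Gramd2.

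Outside these lists, the highest-ranked WT member without a cKO overlap was a Downstream peak of Ssc4d at percentile 84.4, 667 bp wide, and it was the 1 such member in the top 20% of the WT list. Next by the naming rule came 3' UTR peaks deposited under Nt5c2 at 73.1, Ticam1 at 72.2, Cyp4f16 at 71.9 and Fgfr1op at 70.6. Nt5c2 encodes a cytosolic nucleotidase and Ticam1 the Toll-like receptor adaptor TRIF. Of the 13 cKO members without a WT overlap, the strongest lay over the end of Lyz2, a lysozyme gene of myeloid cells, at percentile 39.1, and its nearest WT peak was 52477 bases away. Fcgr3, an Fc receptor gene of myeloid and natural killer cells, had an overlapped 3' UTR peak at 54.3 in the cKO list and 45.0 in the WT list. The part of other cells in these peaks was not tested. Ap3m1 followed at 29.1, and Hadh, Kcne1l, Rps15a, Tes and Ndufb4c were at percentile 2.72 or lower. The other 6 were assigned to predicted genes, at percentile 13.8 or lower.

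By the names the lists give, 440 genes had a gene-end peak in both libraries, 34 in the cKO list alone and 671 in the WT list alone. By RefSeq ends the counts were 335 in both, 26 in the cKO list alone and 524 in the WT list alone. Over all classes the cKO list named 14043 genes and the WT list 19215. How many of those stood in 1 list alone was not computed, so the counts show no trait of gene ends. At equal list lengths the deposited names gave 141 genes in the cKO list alone and 149 in the WT list alone. Equal list lengths almost fix such counts to be alike. They are no test of the imbalance in the full lists, which goes with their unequal lengths.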

How the data were processed

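ATAC-seq was measured in 1 cKO and 1 WT library. The submitters' processing notes name MACS2, BWA, FastQC and Trimmomatic and the build mm10. Versions, settings, the annotation tool and any Tn5 offset correction: not given in the sources used here. The authors deposited 1 peak list per library, with positions, a class, an assigned gene and a score per peak. The score's meaning is not stated in the file headers, so it only ranked peaks within a list. Read totals were not used here, so depth is unknown.

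From these lists, members were taken by class, matched to RefSeq coding ends (19787 of 21896 coding genes had a strand; 94.9% of 11486 assigned genes had a boundary within 1000 bases of the RefSeq gene), and overlapped by at least 1 bp, with code checked against bedtools 2.31.1 and on simulated peaks. Wilson and Newcombe 95% intervals used scipy 1.17.1. Pandas 2.3.3 and numpy 2.4.6 were used. Genes named are the members of highest score per class whose assigned gene is no predicted or clone-named model, those highest without an overlap (again without such models in the WT list), the widest, those with most peaks, and members at listed genes. Members, lists and alternatives were chosen with earlier results of these data known. Some genes that illustrate a list by RefSeq end, and Gm38140, BC035947 and Gm45609, were chosen after their values were seen. A few genes that the rule names are not reported here.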

Additional observations from a re-analysis of the deposited data

How the results depend on the processing

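No paired analysis was possible because cKO and WT are 1 library each, and neither could be left out. Of the 33 recomputed values that answer a comparison, 22 stayed within their interval or within 1.5 times the count, and 11 moved. With equal list lengths (the 19680 strongest WT peaks), 72.6% of cKO members and 73.7% of WT members were overlapped. At these lengths 149 genes had a member in WT alone and 141 in cKO alone. Lists of equal length give near-equal values on both sides almost by construction, so only the level of these values is informative. Both lists were also cut to peaks at or above their own median score. The shares were then 98.5% of cKO members and 32.7% of WT members. The gap to other non-promoter WT peaks was −2.99 points (−7.59 to 1.92). The gap of 3' UTR over downstream was −8.27 points (−17.6 to 1.08), and 266 genes were in WT alone and 6 in cKO alone. WT members could here meet only the cKO peaks kept. Against the uncut cKO list, WT members were overlapped at 86.3% in score class 4 of 5 and 98.3% in class 5. With WT peaks at least as wide as the narrowest cKO peak, 46.7% of WT members were overlapped. A class rebuilt from RefSeq ends of both strands, added after seeing the data, held 616 cKO and 1453 WT peaks and gave 96.1% for cKO and 41.8% for WT. Motifs in windows at peak midpoints were not run, for want of a genome. Depth, unknown here, limits every peak said to be in 1 list alone.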

Other observations

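Peaks just past plus-strand ends, which the deposited lists class as Distal Intergenic, include ends of T cell genes that the gene-end classes miss. The cKO list had 7 such peaks at 7 listed genes, all overlapped by WT, and the WT list had 19 at 19 listed genes, 8 of them overlapped by cKO. Il4ra, the IL-4 receptor alpha chain, had one at percentile 82.8 in the cKO list and 87.1 in the WT list. Bach2, a repressor that keeps Treg cells in a resting state, had one at 55.4 in the cKO list and 82.4 in the WT list. Runx3 had one at 33.3 in the cKO list and 57.5 in the WT list. The peak past Ctla4, the inhibitory receptor, was 626 bp wide at percentile 9.62 in the cKO list and 1390 bp wide at 41.5 in the WT list. Id3, Dusp5 and Ikzf1 also had one in each list. The WT peaks with no cKO overlap lay past Zap70, Itgb2, Nrp1, Cd274, Cbfb, Ets1, Cd83, Icos, Batf3, Nt5e and Il2ra, at percentiles from 1.72 at Il2ra to 51.0 at Zap70. Over all genes, the peaks 1 to 3000 bases beyond a plus-strand end were overlapped by WT in 93.0% of cKO cases and by cKO in 41.1% of WT cases, and those beyond a minus-strand end in 97.7% of cKO cases and 42.1% of WT cases.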
